A study of Mus musculus with 20 samples.

Results

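The 8 genes studied here belong to thyroid hormone signalling, and they were followed in brain tissue of mice that lack a corepressor in neurons. They are the receptors Thra and Thrb, the supply genes Slco1c1, Dio2 and Crym, and the hormone-responsive genes Hr, Klf9 and Nrgn. They were chosen by symbol, with earlier results of these data known, and 8 of 8 were found among the 23412 genes of each deposited table. All 8 passed the filter on low values in both tissues.

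The 20 libraries come from hippocampus and amygdala on postnatal day 21. Each tissue had 3 NCoR1-KO, 3 SMRT-KO and 4 control libraries. NCoR1-KO stands for floxed Ncor1 and SMRT-KO for the floxed gene of SMRT, each crossed with the pan-neuronal driver Snap25-IRES2-cre. The sources used here do not give the strain or sex of the animals or the Cre and floxed alleles of the controls. No label ties the libraries within a group to different animals, so p-values measure the spread between these libraries, which may be technical.

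Thyroid hormone reaches the brain mainly as thyroxine, which crosses the barrier through transporters and is converted to the active triiodothyronine by a deiodinase of astrocytes. The receptors sit on their target genes with or without hormone. Without it they recruit NCoR1 and SMRT, which bring histone deacetylase to the gene, and with it they exchange these for coactivators. Hormone in the weeks around birth is needed for myelination and for neuronal maturation in hippocampus and cortex.

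Promoter sequence is shown for the hormone-supplying genes that separated the knockouts and for Klf9, a classical receptor target. Of the 8 genes, 5 had an entry in RefSeq's GRCm38.p6 promoter table. Thrb had several, which gave 6 windows of 250 bases before a start site. Capitals mark, on either strand, the receptor half-site AGGTCA, the KLF-type box CACCC and the cAMP response element TGACGTCA. None of these matches overlap.

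Dio2, chr12:90739039-90739288, minus strand: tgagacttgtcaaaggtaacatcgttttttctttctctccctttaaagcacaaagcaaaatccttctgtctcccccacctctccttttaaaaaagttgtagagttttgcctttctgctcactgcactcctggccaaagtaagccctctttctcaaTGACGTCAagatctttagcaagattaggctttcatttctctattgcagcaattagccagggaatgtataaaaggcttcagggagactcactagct

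Slco1c1, chr6:141524104-141524353, plus strand: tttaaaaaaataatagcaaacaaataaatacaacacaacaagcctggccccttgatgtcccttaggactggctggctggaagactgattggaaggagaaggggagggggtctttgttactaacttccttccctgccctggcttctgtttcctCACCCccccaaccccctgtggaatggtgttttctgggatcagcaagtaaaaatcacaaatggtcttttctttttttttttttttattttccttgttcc

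Klf9, chr19:23140976-23141225, plus strand: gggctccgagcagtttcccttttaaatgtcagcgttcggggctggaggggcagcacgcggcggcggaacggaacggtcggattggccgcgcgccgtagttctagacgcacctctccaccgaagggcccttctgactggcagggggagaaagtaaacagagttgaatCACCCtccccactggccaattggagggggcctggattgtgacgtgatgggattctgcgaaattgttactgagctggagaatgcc

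The Dio2 window held the cAMP response element from -95 to -88 relative to RefSeq's start. This motif was found in 1.55% of the 32851 windows of the table. On the minus strand, that start lies upstream of the Dio2 gene in GENCODE, which ends at 90738438. The CACCC box lay from -98 to -94 in Slco1c1 and from -84 to -80 in Klf9. It was found in 3 of the 6 windows, that of Nrgn included, and 52.0% of all windows hold it. The half-site, present in 14.0% of all windows, was found in 1 of the 6 windows, that of Thrb, shown here as a short stretch.

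Thrb, chr14:17660764-17660793, plus strand: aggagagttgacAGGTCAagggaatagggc

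A direct repeat of the half-site with a spacer of 4 bases, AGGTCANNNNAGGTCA, was found in 0 of the 6 windows and in 0.0152% of all windows. A match describes letters and not binding.

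TPM corrects for transcript length and library total, so levels can be set beside each other between genes. Sequencing depth is unknown, since TPM keeps none. In control hippocampus the order was Nrgn at 1830 ± 66.1 TPM, Thra at 632 ± 71.7, Crym at 398 ± 102, Klf9 at 193 ± 8.98, Slco1c1 at 64.3 ± 4.61, Dio2 at 49.0 ± 2.98, Thrb at 20.015 ± 1.73 and Hr at 14.1 ± 2.46 TPM (SD, n = 4 each). No neighbours in this order overlapped between control libraries. In control amygdala the order was the same, with Crym at 209 ± 36.8 and Klf9 at 169 ± 6.28 TPM, and there Slco1c1 at 69.3 ± 8.01 and Dio2 at 61.9 ± 7.52 TPM overlapped (SD, n = 4 each). The libraries had between 13787 and 14509 genes at 1 TPM or more. The dentate marker Prox1 ran from 19.6 to 84.3 TPM in hippocampus and from 4.94 to 9.44 TPM in amygdala, and the amygdala marker Tfap2d was at 0 TPM in 7 of 10 hippocampus libraries and at 2.33 to 4.76 TPM in amygdala. The dentate markers C1ql2, Dsp, Tdo2 and Lct also did not overlap between tissues, while Pdzd2 did (12.7 to 25.1 against 17.1 to 25.3 TPM). The other amygdala markers, Cyp26b1, Lypd1, Rspo2, Dlk1 and Etv1, all overlapped between tissues.

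Ncor1 checks the NCoR1-KO labels. Its level was 41.9 to 61.1 TPM in hippocampus NCoR1-KO, against 81.6 to 137 TPM in controls, and 32.1 to 39.0 TPM in amygdala NCoR1-KO, against 71.3 to 127 TPM in controls.

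**Figure D1:**
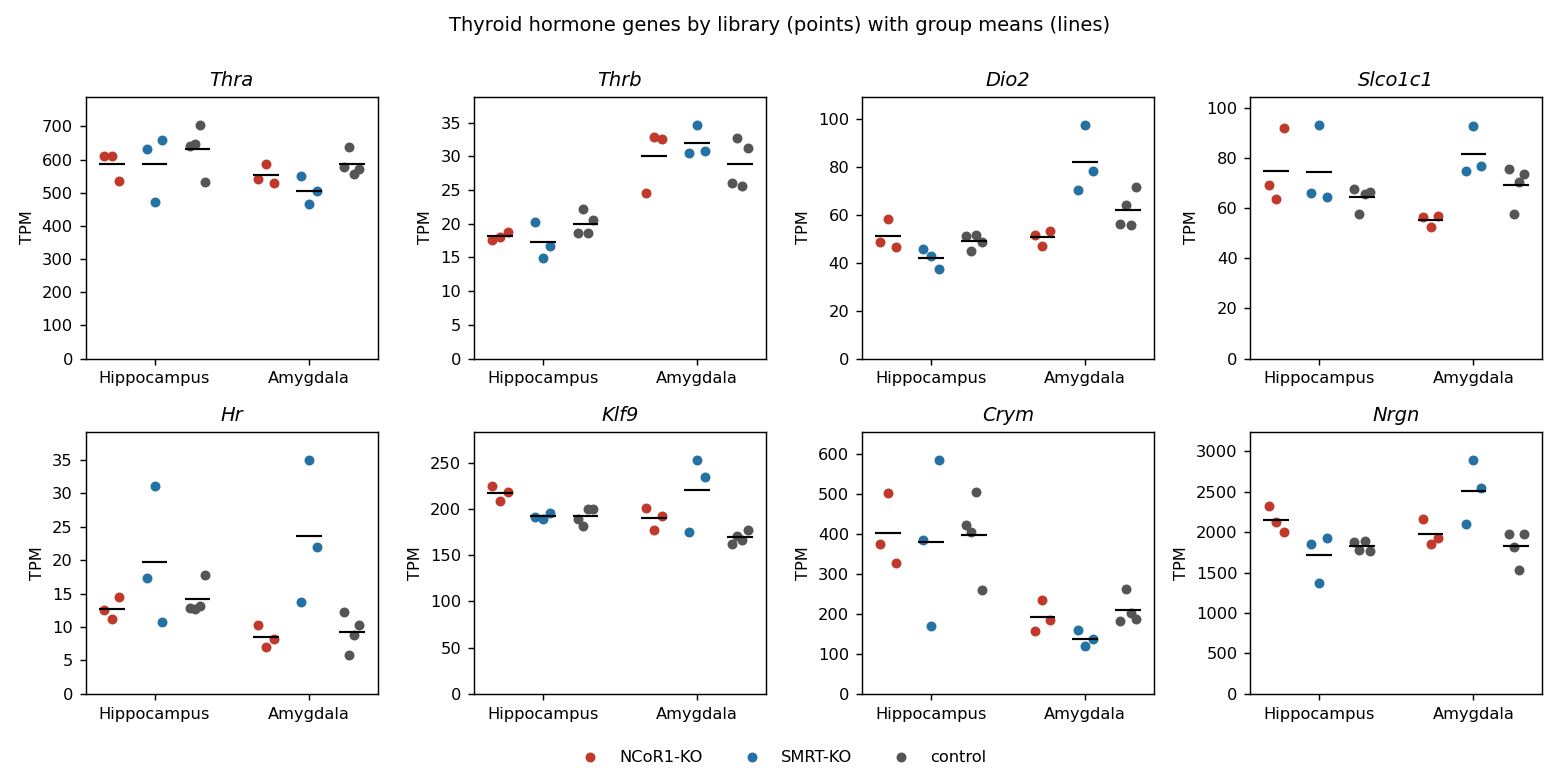
TPM (y axes, from 0) of each gene in each library, with NCoR1-KO, SMRT-KO and control side by side in hippocampus and amygdala. Points are libraries and lines are group means. Hr reached 34.98 TPM in 1 amygdala SMRT-KO library, and Dio2 and Slco1c1 of amygdala NCoR1-KO lay below every SMRT-KO library.

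Thra (plus strand of chromosome 11, 98740638 to 98769006, GRCm38) encodes the main receptor of neurons, and its gene also makes an isoform that does not bind hormone. The gene-level values sum both. Its end overlaps Nr1d1 on the other strand, and since it is not stated that counting used strand, reads there may be shared. In amygdala Thra was at 550, 466 and 504 TPM in SMRT-KO 1, 2 and 3 and at 577, 638, 556 and 571 TPM in controls 1 to 4. Every SMRT-KO library lay below every control, by 0.21 ± 0.07 (SE) on the log2 scale, but the difference missed the threshold over all genes (limma's adjusted p = 0.118; two-sided exact permutation p = 0.0286). In amygdala NCoR1-KO the values of 542, 587 and 528 TPM overlapped with control (log2 difference -0.08 ± 0.07, 95% interval -0.23 to 0.07). In hippocampus Thra ran from 535 to 611 TPM in NCoR1-KO libraries, from 472 to 660 TPM in SMRT-KO and from 533 to 705 TPM in control, with log2 differences from control of -0.11 ± 0.13 in both knockouts.

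Thrb (plus strand of chromosome 14, 17660261 to 18038090), the second receptor gene, did not separate the genotypes. In hippocampus it was at 17.6, 18.1 and 18.7 TPM in NCoR1-KO libraries, 20.2, 14.9 and 16.7 TPM in SMRT-KO and 18.6, 22.2, 18.7 and 20.6 TPM in control. In amygdala it ran from 24.6 to 32.9 TPM in NCoR1-KO libraries, from 30.5 to 34.7 TPM in SMRT-KO and from 25.7 to 32.7 TPM in control. All 4 knockout differences were between -0.21 and 0.14 on the log2 scale, and their 95% intervals ran from -0.44 to 0.40.

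The balance of the receptors was set side by side for the tissues. Within a library the ratio of Thra to Thrb was 31.8 ± 5.33 in control hippocampus and 20.4 ± 1.83 in control amygdala (SD, n = 4 each), and the control libraries did not overlap (25.9 to 37.8 against 18.2 to 22.1). A two-sided exact permutation test gave p = 0.0286, the smallest that it can give, and 0.143 when adjusted over the 5 comparisons of this ratio. In amygdala the ratio was 18.1, 13.4 and 16.4 in SMRT-KO, against 22.1, 19.5, 21.7 and 18.2 in control (exact permutation p = 0.0571, adjusted 0.143). In amygdala NCoR1-KO it was 18.7 ± 3.04, and in hippocampus it was 32.4 ± 3.34 in NCoR1-KO and 34.1 ± 4.66 in SMRT-KO (SD, n = 3 each), all overlapping with control.

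Both tables hold TPM scaled within each library, and levels were compared between tissues on that footing in a joint fit of all 20 libraries. The fit took libraries as unpaired, though same-numbered libraries of the tissues all correlated positively (r from 0.000814 to 0.48). With these pairs as a block Hr also passed between control tissues (limma's adjusted p = 0.0409). Of 14210 genes tested, 32.5% differed between control hippocampus and control amygdala, and of the 8 thyroid hormone genes 3 did. Thrb was lower in hippocampus, at 20.015 ± 1.73 TPM against 28.9 ± 3.58 TPM (SD, n = 4 each), with a log2 difference of -0.51 ± 0.11 and limma's adjusted p = 0.00145. Dio2 was lower there by 0.33 ± 0.10 (adjusted p = 0.0219), and Crym higher by 0.90 ± 0.28 (adjusted p = 0.0211). The Dio2 call ended without hippocampus control 2 or amygdala control 2 or 4, where its adjusted p was 0.0535 to 0.0831. The Crym call ended without hippocampus control 1 or 3 or amygdala control 1 or 4, where its adjusted p was 0.0512 to 0.0681. A share of 3 in 8 is near that of all genes.

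Of the supply genes, Slco1c1 and Dio2 were lower in amygdala NCoR1-KO than in SMRT-KO, while Crym, at 0.46 ± 0.17 on the log2 scale, overlapped between the knockouts and did not pass (adjusted p = 0.0906). Slco1c1 (plus strand of chromosome 6, 141524368 to 141570177) encodes a thyroxine transporter of brain endothelium and astrocytes. Amygdala NCoR1-KO 1, 2 and 3 held 56.4, 52.6 and 57.0 TPM, and SMRT-KO 1, 2 and 3 held 74.9, 92.8 and 76.9 TPM. The ranges were apart, and NCoR1-KO fell below SMRT-KO by 0.54 ± 0.11 on the log2 scale (limma's adjusted p = 0.0145, lower in 3 of 3 libraries). Controls 1 to 4 lay at 75.7, 57.8, 70.4 and 73.5 TPM, above each NCoR1-KO library and overlapping with SMRT-KO. The log2 difference from control was -0.31 ± 0.10 in NCoR1-KO (adjusted p = 0.201) and 0.23 ± 0.10 in SMRT-KO (adjusted p = 0.203), and neither passed.

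Dio2 (minus strand of chromosome 12, 90724552 to 90738438) encodes the deiodinase that activates thyroxine in astrocytes. In amygdala it was at 51.5, 47.1 and 53.3 TPM in NCoR1-KO libraries and at 70.1, 97.5 and 78.0 TPM in SMRT-KO. NCoR1-KO fell to 61.8% of the SMRT-KO mean, a log2 difference of -0.67 ± 0.12 (adjusted p = 0.0122, lower in 3 of 3 libraries). Controls held 56.2, 64.0, 55.7 and 71.6 TPM, between the knockouts apart from control 4, which exceeded SMRT-KO 1. Against control the log2 difference was -0.28 ± 0.12 in NCoR1-KO (adjusted p = 0.337) and 0.39 ± 0.12 in SMRT-KO (adjusted p = 0.0955). Both knockouts share these controls. Without NCoR1-KO 2 the differences between the knockouts no longer passed for Dio2 (adjusted p = 0.0508) or Slco1c1 (adjusted p = 0.0584), and without SMRT-KO 2 that of Slco1c1 did not (adjusted p = 0.0548).

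Markers of astrocytes, vessels, microglia and choroid plexus were read in the same libraries. The 10 astrocyte markers summed to 3306 to 3403 TPM in amygdala NCoR1-KO, 3742 to 4322 TPM in SMRT-KO and 3779 to 4354 TPM in control, and none was at 0. Against control 9 of the 10 lay below in NCoR1-KO (median -0.20), and the glutamate transporter Slc1a2 passed at -0.43 ± 0.07 (limma's adjusted p = 0.0291). Between the knockouts 8 of the 10 lay below in NCoR1-KO (median -0.14) and 2 passed, Slc1a2 at -0.58 ± 0.07 (adjusted p = 0.00289) and the water channel Aqp4 at -0.48 ± 0.12 (adjusted p = 0.0306). Endothelial markers summed to 305 to 361 TPM in NCoR1-KO libraries, 326 to 402 TPM in SMRT-KO and 327 to 414 TPM in control, and 8 of 10 lay lower in NCoR1-KO than in SMRT-KO (median -0.24), of which Pecam1 passed (-0.37 ± 0.10, adjusted p = 0.0446). Microglia markers summed to 575 to 631 TPM in NCoR1-KO libraries, 776 to 854 TPM in SMRT-KO and 639 to 835 TPM in control, and 10 of 10 lay lower in NCoR1-KO than in SMRT-KO (median -0.38), of which 7 passed. The 7 choroid plexus markers summed to 173 to 193 TPM in amygdala NCoR1-KO, 402 to 1010 TPM in SMRT-KO and 129 to 1431 TPM in control. Of these, 6 were tested and 6 of 6 lay lower in NCoR1-KO than in SMRT-KO (median -0.89), with Enpp2 called (-1.17 ± 0.33, adjusted p = 0.0462). Against control 9 of 10 endothelial markers (median -0.16), 10 of 10 microglia markers (median -0.31) and 6 of 6 choroid plexus markers (median -0.38) lay lower in NCoR1-KO, with 0 called. In bulk tissue, fewer cells of a type and less RNA per cell cannot be told apart. The part of these cells in the Dio2 and Slco1c1 differences was not tested.

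In hippocampus the same genes did not show that contrast. Dio2 was at 48.5, 58.4 and 46.7 TPM in NCoR1-KO libraries, 45.8, 42.6 and 37.4 TPM in SMRT-KO and 51.0, 44.9, 51.3 and 48.7 TPM in control. NCoR1-KO lay above SMRT-KO in all 3 libraries, by 0.28 ± 0.10 on the log2 scale (adjusted p = 0.728). Slco1c1 was at 69.3, 63.5 and 91.9 TPM in NCoR1-KO libraries, 65.9, 93.3 and 64.4 TPM in SMRT-KO and 57.5 to 67.7 TPM in control. Single libraries were high in each knockout, NCoR1-KO 3 and SMRT-KO 2, and these also held the highest sums of the 7 choroid plexus markers, 13995 and 7162 TPM, against 196 to 3891 TPM in control. Endothelial markers summed to 415 TPM in SMRT-KO 2 and 330 TPM in NCoR1-KO 3, against 310 to 340 TPM in control. The part of choroid plexus or endothelium in these values was not tested. The difference between tissues in the SMRT-KO effect on Dio2 was -0.61 ± 0.16 (hippocampus minus amygdala, adjusted p = 0.331), and it did not pass.

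Crym (minus strand of chromosome 7, 120186380 to 120202111) encodes a cytosolic protein that binds thyroid hormone. In amygdala it was at 159, 120 and 136 TPM in SMRT-KO and at 182, 262, 202 and 188 TPM in control, without overlap. The level was 66.3% of control and the log2 difference was -0.58 ± 0.16, short of the threshold over all genes (adjusted p = 0.0806; exact permutation p = 0.0286). In amygdala NCoR1-KO it was at 157, 235 and 185 TPM and overlapped with control (-0.12 ± 0.16). In hippocampus the libraries differed widely within groups. Crym was at 374, 502 and 327 TPM in NCoR1-KO libraries, 386, 169 and 584 TPM in SMRT-KO and 422, 404, 504 and 260 TPM in control, and the 95% interval of the SMRT-KO difference ran from -1.03 to 0.63.

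**Figure D2:**
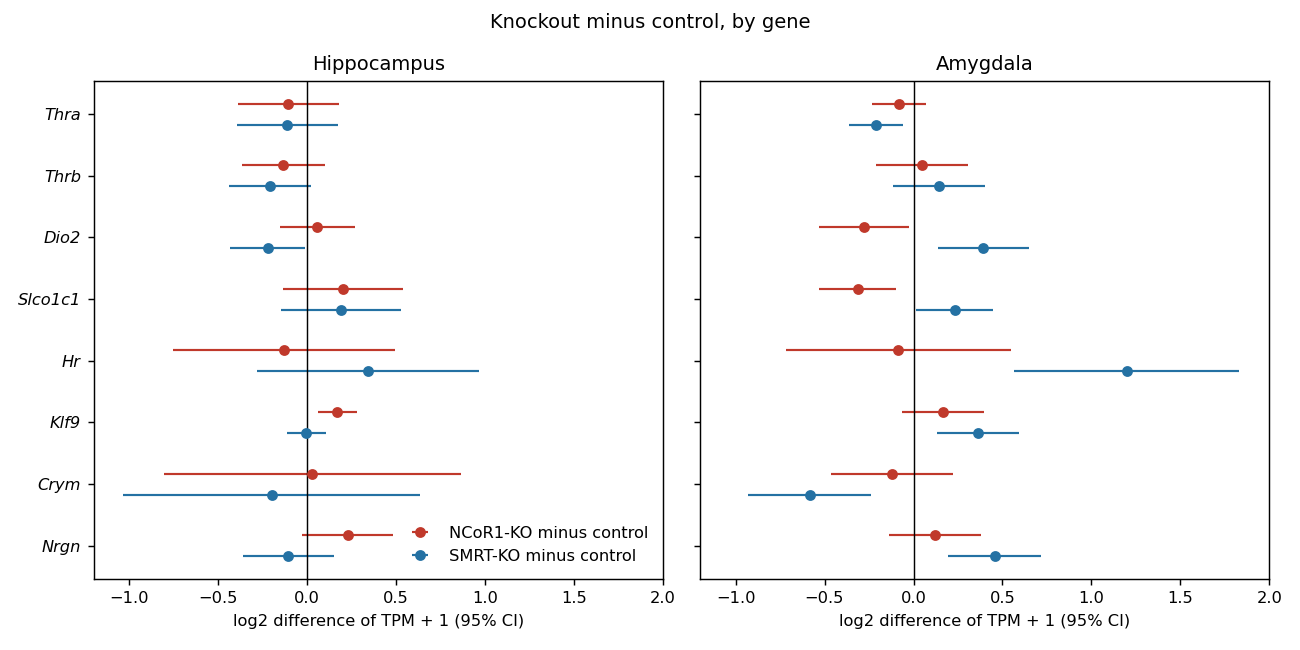
Log2 difference of TPM + 1 (x axes) from control for NCoR1-KO and SMRT-KO, with 95% intervals from the model, in hippocampus and amygdala. In amygdala Dio2 and Slco1c1 lie on opposite sides of 0 in the knockouts, at -0.28 and 0.39 and at -0.31 and 0.23.

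Of the hormone-responsive genes, Hr varied most. Hr (plus strand of chromosome 14, 70552212 to 70573548) encodes a corepressor that is itself induced by thyroid hormone in brain. In amygdala it was at 13.8, 34.98 and 22.0 TPM in SMRT-KO and at 12.3, 5.87, 8.77 and 10.4 TPM in control. All SMRT-KO libraries were above all controls, with a mean of 253% of control and a log2 difference of 1.198 ± 0.286. The threshold over all genes was missed (adjusted p = 0.0658; exact permutation p = 0.0286), and the adjusted p ran from 0.0217 without SMRT-KO 1 to 0.267 without SMRT-KO 2. NCoR1-KO libraries held 10.4, 7.07 and 8.20 TPM and overlapped with control (-0.09 ± 0.29).

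Between the amygdala knockouts Hr did pass. NCoR1-KO was at 36.3% of SMRT-KO, a log2 difference of -1.28 ± 0.31 (adjusted p = 0.0278, lower in 3 of 3 libraries). The call held without SMRT-KO 1 (adjusted p = 0.0111) and ended without any 1 of the other 5 libraries (adjusted p from 0.0528 to 0.0972). Hr, Dio2 and Slco1c1 were the 3 of 8 genes called in this comparison, where 1679 of 14606 genes passed (11.5%). The libraries of both knockouts did not overlap for the same 3 genes, all lower in NCoR1-KO, and for 38.4% of all tested genes.

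In hippocampus Hr was at 12.6, 11.3 and 14.5 TPM in NCoR1-KO libraries, 17.3, 31.1 and 10.7 TPM in SMRT-KO and 12.9, 12.7, 13.2 and 17.8 TPM in control. The log2 difference of 0.34 ± 0.28 in SMRT-KO (adjusted p = 0.812) was -0.04 without SMRT-KO 2. That library had a thalamus marker sum of 689 TPM, against 70.6 to 189 TPM in the other 9, and the highest oligodendrocyte marker sum, 29014 TPM, against 10012 to 20739 TPM. It also held the lowest Thra, Thrb, Crym and Nrgn and the highest Hr and Slco1c1 of the 10 hippocampus libraries.

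Klf9 (plus strand of chromosome 19, 23141226 to 23168134) encodes a zinc finger transcription factor induced by thyroid hormone and glucocorticoids. Of the 8 genes in hippocampus it had the smallest residual SD within groups, 0.054 on the log2 scale. NCoR1-KO libraries held 224, 208 and 218 TPM, against 189, 182, 200 and 200 TPM in controls, without overlap. The log2 difference was 0.17 ± 0.05 (unadjusted p = 0.00656, limma's adjusted p = 0.998; exact permutation p = 0.0286). SMRT-KO, at 191, 189 and 195 TPM, overlapped with control (-0.0046 ± 0.05, 95% interval -0.11 to 0.11). In amygdala it was at 200, 177 and 192 TPM in NCoR1-KO libraries, 175, 253 and 235 TPM in SMRT-KO and 162, 171, 166 and 177 TPM in control. Every NCoR1-KO library lay just above every control (0.16 ± 0.10, adjusted p = 0.537), while SMRT-KO 1 lay within the controls and SMRT-KO 2 and 3 well above (0.36 ± 0.10, adjusted p = 0.0931). With a library left out, the adjusted p of SMRT-KO against control ran from 0.012 without SMRT-KO 1 to 0.347.

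Nrgn (minus strand of chromosome 9, 37544492 to 37552904) encodes neurogranin, a postsynaptic protein that binds calmodulin and depends on thyroid hormone in parts of the rat forebrain. In amygdala it was at 2098, 2892 and 2548 TPM in SMRT-KO and at 1972, 1819, 1532 and 1983 TPM in control. The groups did not overlap, with a mean of 138% of control, a log2 difference of 0.46 ± 0.12 and no call (adjusted p = 0.0769; exact permutation p = 0.0286). NCoR1-KO held 2158, 1860 and 1928 TPM and overlapped with control. In hippocampus it was at 2322, 2120 and 1998 TPM in NCoR1-KO libraries, above the 1879, 1781, 1894 and 1766 TPM of control (0.23 ± 0.11, adjusted p = 0.998; exact permutation p = 0.0286), and at 1857, 1370 and 1932 TPM in SMRT-KO.

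The counts put these values beside all genes. Against control 0 of 8 genes passed in each tissue and knockout. All genes gave 0% of 14501 in both hippocampus comparisons, with 658 genes (4.54%) at an unadjusted p under 0.05 in NCoR1-KO and 813 (5.61%) in SMRT-KO. In amygdala they gave 0.411% of 14606 in NCoR1-KO and 0.11% in SMRT-KO. In each of these comparisons with control the smallest p over all genes was that of Snap25, for which the Cre driver is named. The part of the driver allele in the differences from control was not tested. At an unadjusted p under 0.05 there were 1 of 8 in each hippocampus knockout (Klf9 in NCoR1-KO and Dio2 in SMRT-KO), 2 of 8 in amygdala NCoR1-KO (Dio2 and Slco1c1) where all genes gave 13.1%, and 7 of 8 in amygdala SMRT-KO, all but Thrb, where all genes gave 22.0%. The median log2 difference of the 8 was 0.30 in amygdala SMRT-KO, against -0.03 over all tested genes, and -0.08 in NCoR1-KO, against -0.03. The 8 were chosen with earlier results of these data known, so these shares and medians are no independent test. In amygdala SMRT-KO the adjusted p of 4 of the 8, Dio2, Hr, Klf9 and Nrgn, was under 0.05 without SMRT-KO 1, where 697 genes passed. With another library left out it reached 0.353 for Dio2, 0.267 for Hr, 0.347 for Klf9 and 0.303 for Nrgn. Over all such fits 0 to 4 of the 8 were called.

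Groups without overlap were also counted. In amygdala SMRT-KO Hr and Nrgn lay above and Thra and Crym below every control, and 18% of all tested genes did not overlap. In amygdala NCoR1-KO Klf9 lay above and Dio2 and Slco1c1 below (12.1% of all genes), and in hippocampus NCoR1-KO Klf9 and Nrgn lay above (8.09%). In hippocampus SMRT-KO it was 0 of 8 (4.78%). In hippocampus NCoR1-KO against SMRT-KO, Dio2, Klf9 and Nrgn were higher without overlap (11.4% of all genes) and 0% of genes passed limma's test, with 956 at an unadjusted p under 0.05. The knockout effects did not pass a test of difference between tissues for any of the 8 genes or for any of the 14210 genes tested (0% for either knockout, with 522 genes at an unadjusted p under 0.05 for NCoR1-KO and 1257 for SMRT-KO).

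Regional and myelin markers were read beside the amygdala values. The 10 oligodendrocyte markers summed to 8066 to 12172 TPM in SMRT-KO, against 2693 to 9556 TPM in control, and all 10 had a positive log2 difference (median 0.87). Of the 8 striatum markers 7 were found, and they summed to 996 to 1589 TPM in SMRT-KO, against 353 to 1119 TPM in control, with 7 of 7 above (median 1.13). In NCoR1-KO the sums were 3952 to 5419 TPM for oligodendrocytes and 537 to 970 TPM for striatum. None of these markers was at 0 in any library, and 0 of the oligodendrocyte and striatum markers passed against control. In NCoR1-KO against SMRT-KO 10 of 10 oligodendrocyte markers lay lower (median -1.10), of which Ermn passed (-1.11 ± 0.30, adjusted p = 0.0386), and 7 of 7 striatum markers lay lower (median -1.12) with 0 called. Neuron markers summed to 6376 to 6529 TPM in SMRT-KO, 6683 to 7155 TPM in NCoR1-KO libraries and 6252 to 6983 TPM in control. Against SMRT-KO 7 of them lay higher and 3 lower in NCoR1-KO (median 0.07). Syp (0.23 ± 0.06, adjusted p = 0.0374) and Celf4 (0.31 ± 0.08, adjusted p = 0.0379) were called higher. Of 9 interneuron markers 5 lay higher and 4 lower, with Pvalb called lower (-1.63 ± 0.33, adjusted p = 0.0179). Amygdala nuclei markers summed to 242 to 447 TPM in SMRT-KO, 444 to 546 TPM in NCoR1-KO libraries and 384 to 458 TPM in control. Against SMRT-KO 5 of these lay higher and 1 lower in NCoR1-KO (median 0.47), with Cyp26b1 called higher (1.15 ± 0.26, adjusted p = 0.0227). Of the 7 thalamus markers, Rora, which encodes an orphan nuclear receptor, was called in both knockouts against control. It was at -0.87 ± 0.11 in NCoR1-KO (adjusted p = 0.0162) and 0.74 ± 0.11 in SMRT-KO (adjusted p = 0.0473). In NCoR1-KO 1 of the 7 lay above control and 6 below, and in SMRT-KO 4 lay above and 3 below. Between the knockouts Rora, Ramp3 and Lef1 were called lower in NCoR1-KO, and Slc17a6 was called higher. The thalamus sums ran from 115 to 124 TPM in NCoR1-KO libraries, 131 to 148 TPM in SMRT-KO and 106 to 144 TPM in control. The part of neighbouring tissue in the values of Hr, Klf9, Nrgn, Crym and the induced genes was not tested.

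**Figure D3:**
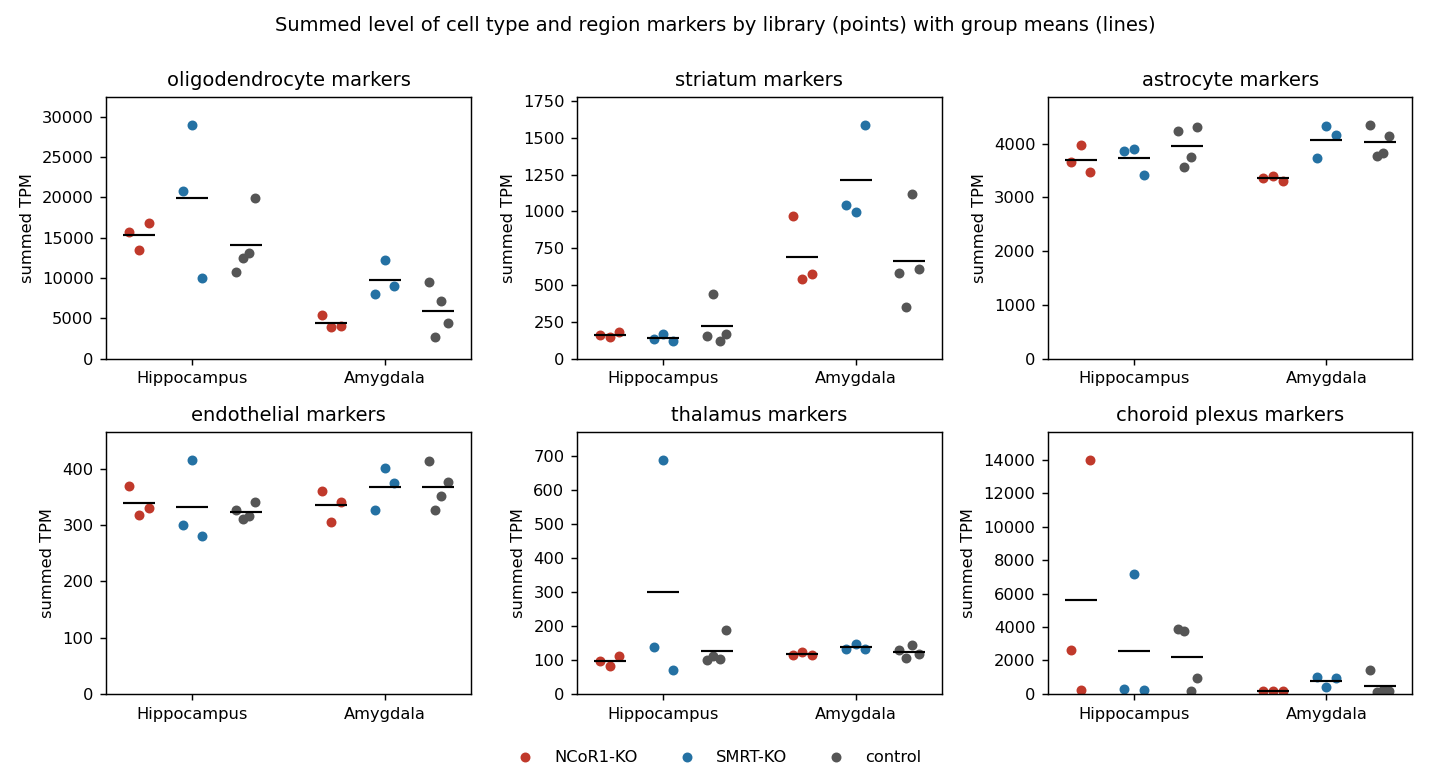
Summed TPM (y axes, from 0) of marker genes in each library, with NCoR1-KO, SMRT-KO and control side by side in each tissue. Points are libraries and lines are group means. Hippocampus SMRT-KO 2 stands at 689 TPM for thalamus, and amygdala SMRT-KO lies at 996 to 1589 TPM for striatum, against 353 to 1119 TPM in control.

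Other genes of the pathway were followed from 4 lists. Of 25 genes that thyroid hormone induces in brain, 24 were tested, and they hold several myelin genes that are also oligodendrocyte markers. Rasd2 of this list is also a striatum marker and Nefl a neuron marker. In amygdala SMRT-KO 17 lay above and 7 below control with a median log2 difference of 0.47, against -0.03 over all tested genes. An unadjusted p under 0.05 was found for 18 of the 24 and for 22.0% of all genes, and none of the 24 passed over all genes. This list, too, was chosen with earlier results of these data known, so its share and median are no independent test. Camk4, a calcium-dependent kinase, was at 182, 177 and 203 TPM in SMRT-KO and at 136, 129, 155 and 130 TPM in control (0.45 ± 0.08, adjusted p = 0.0572). In NCoR1-KO it was at 111, 98.3 and 111 TPM, below every control (-0.36 ± 0.08, adjusted p = 0.0846). The induced list had 15 of 24 above control in amygdala NCoR1-KO (median 0.06), 19 of 24 in hippocampus NCoR1-KO (median 0.15) and 15 of 24 in hippocampus SMRT-KO (median 0.11), with 0 called in each. Between control hippocampus and control amygdala 13 of the 24 were higher and 3 lower in hippocampus, where 1880 of all 14210 tested genes were higher and 2741 lower (32.5% in all). Among the knockouts of hippocampus the smallest p belonged to the semaphorin Sema7a in NCoR1-KO, at 102 ± 8.30 against 88.4 ± 8.46 TPM, and to the neurofilament gene Nefm in SMRT-KO, at 203 ± 26.8 against 145 ± 8.80 TPM (SD, n = 3 against 4).

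Between the amygdala knockouts 7 of the 24 induced genes passed, where 11.5% of all tested genes did. Camk4 (-0.80 ± 0.08, adjusted p = 0.0013), the calcium channel Itpr1 (-0.69 ± 0.11, adjusted p = 0.00753), Sema7a (-0.98 ± 0.20, adjusted p = 0.0176), the axonal adhesion gene Cntn2 (-0.44 ± 0.11, adjusted p = 0.0354), Nefm (-0.69 ± 0.18, adjusted p = 0.0375) and Nefh (-0.71 ± 0.20, adjusted p = 0.0467) were lower in NCoR1-KO. Rasgrf1, an exchange factor for Ras, was higher (0.41 ± 0.08, adjusted p = 0.0147). The calls of Camk4 and Itpr1 held with any 1 library of either knockout left out. Those of Sema7a and Rasgrf1 ended without NCoR1-KO 2 or SMRT-KO 2 or 3 (adjusted p from 0.0523 to 0.0698), that of Cntn2 also without NCoR1-KO 1, and those of Nefm and Nefh without any 1 library other than SMRT-KO 1 (adjusted p over these 3 genes from 0.0585 to 0.149). Sema7a held 46.4, 38.3 and 49.8 TPM in NCoR1-KO libraries and 63.7, 119 and 91.8 TPM in SMRT-KO, and SMRT-KO 2 was highest, as it was for Hr. The myelin genes Mbp, Mag and Mog had log2 differences from -1.27 to -1.04 and did not pass (adjusted p from 0.0765 to 0.0919). In hippocampus none of the list passed between the knockouts, and Nefm had the smallest p (-0.39 ± 0.09, adjusted p = 0.704).

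**Figure D4:**
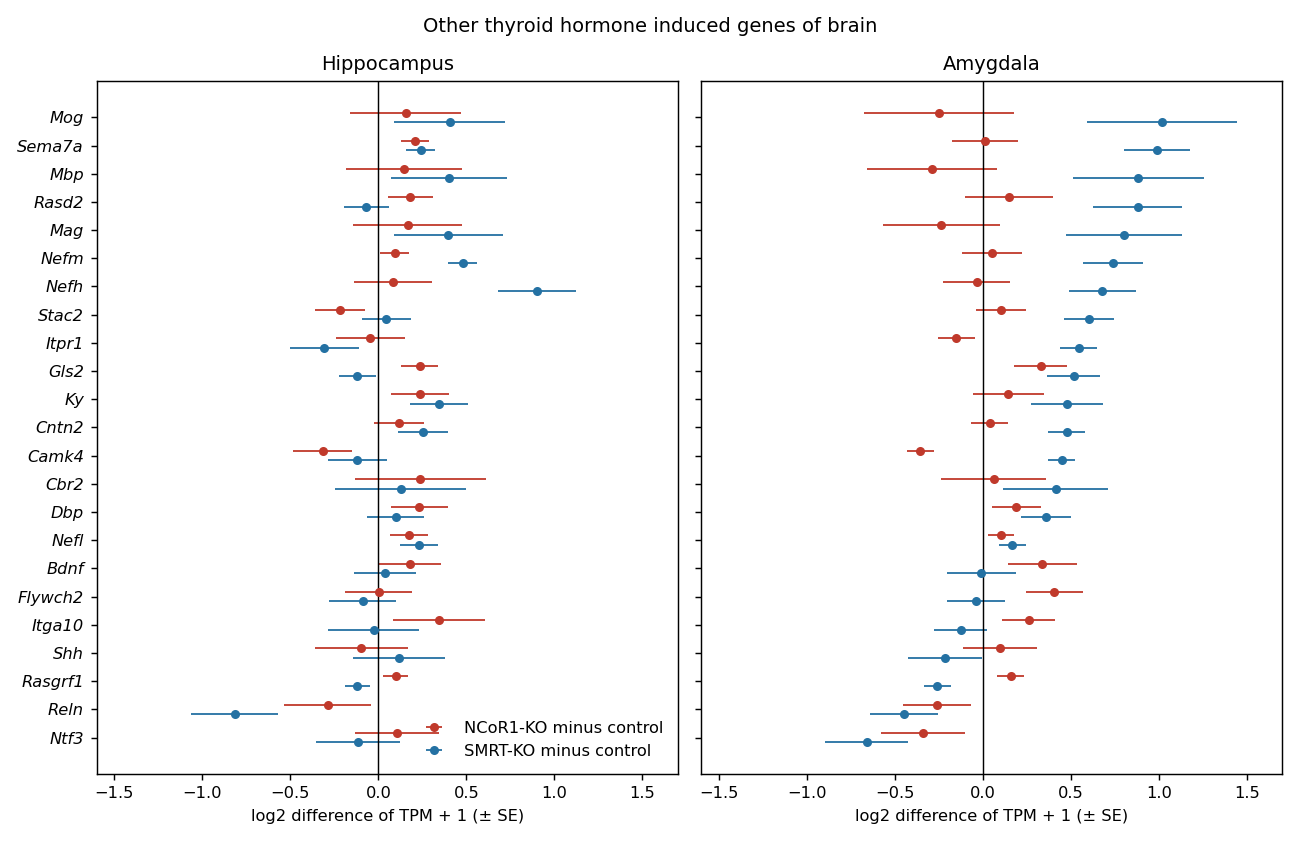
Log2 difference of TPM + 1 (x axes) from control, with standard errors, of tested genes that thyroid hormone induces in brain, ordered by the amygdala SMRT-KO value. In amygdala SMRT-KO most lie above 0, with Sema7a at 0.99 and Ntf3 at -0.66.

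Among 14 other genes of hormone transport and metabolism 12 were tested, and none passed against control. Slc7a8, an amino acid transporter that also carries thyroid hormone, had the smallest p in amygdala SMRT-KO (-0.23 ± 0.08, adjusted p = 0.118), and it was higher in NCoR1-KO than in SMRT-KO, at 77.4 ± 4.77 against 61.1 ± 5.61 TPM (0.34 ± 0.08, adjusted p = 0.0278; SD, n = 3 each). That call ended without NCoR1-KO 2 or 3 or SMRT-KO 2 or 3 (adjusted p from 0.0758 to 0.105). Slco1a4, another barrier transporter, was at 50.1 to 51.6 TPM in amygdala NCoR1-KO, against 52.8 to 72.4 TPM in control (-0.33 ± 0.11, adjusted p = 0.226). In hippocampus the smallest p was that of Slco3a1 in NCoR1-KO (adjusted p = 0.998) and between the knockouts (adjusted p = 0.728), and that of Iyd in SMRT-KO (adjusted p = 0.789).

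Of 15 receptor partners, all tested, only the targeted Ncor1 passed against control, in amygdala NCoR1-KO (-1.57 ± 0.16, adjusted p = 0.00732, and 0.0541 without NCoR1-KO 2). Hdac3, the deacetylase of the NCoR1 and SMRT complexes, was at 120, 112 and 114 TPM in amygdala SMRT-KO and at 126 to 137 TPM in control (-0.19 ± 0.05, adjusted p = 0.0658). It was higher in NCoR1-KO than in SMRT-KO, at 134 ± 3.58 against 115 ± 4.17 TPM (0.21 ± 0.05, adjusted p = 0.0241; SD, n = 3 each), a call that ended without NCoR1-KO 1 or 2 or SMRT-KO 2 or 3 (adjusted p from 0.0562 to 0.0942). In hippocampus Ncor1 had the smallest p in NCoR1-KO (adjusted p = 0.79) and against SMRT-KO (adjusted p = 0.607), and Gps2 in SMRT-KO (adjusted p = 0.779). Of 7 genes that thyroid hormone represses, 4 were tested in hippocampus and 6 in amygdala, and none passed in any knockout comparison. In amygdala SMRT-KO 6 of 6 lay below control (median -0.50), as did 8468 of all 14606 tested genes (median -0.03). Syce2 was at 4.04 ± 0.57 against 6.16 ± 1.11 TPM (adjusted p = 0.0861; SD, n = 3 against 4). The smallest p of this list was that of Trh in amygdala NCoR1-KO (adjusted p = 0.442) and that of Dgkg in hippocampus NCoR1-KO (adjusted p = 0.998).

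Likeness in pattern was described over all 20 libraries, as Pearson's r of log2 values after subtracting each tissue's mean. It is given with no test, since the libraries share tissue composition and the closest of 14209 genes were picked. The genes closest to Thra were Ptpre (0.93), Htr3a (0.92) and Crym (0.91), and Crym was closest to Mtfp1 (0.93), Ptpre (0.93) and Srgap3 (0.92). Hr was closest to Afap1l1 (0.97), Nfic (0.96) and Paqr4 (0.94). Dio2 was closest to Dtna (0.89), Usp28 (0.88) and Ccl27a (0.85), and Slco1c1 to Smpdl3a (0.92), Car2 (0.90) and Slc38a3 (0.89). Nrgn was closest to Rbfox3 (0.92), a neuronal marker, E130012A19Rik (0.90) and Cabp1 (0.88), and Thrb was closest to Slx4ip (0.81), Fam179b (0.80) and Ppp1r12a (0.80). Napa (0.83) and Gls2 (0.83) were among the 3 closest to Klf9. Among the 8 themselves Hr and Crym ran in opposite directions (-0.83) and Klf9 with Nrgn (0.81).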

How the data were processed

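Total RNA of 20 libraries was sequenced after a stranded mRNA preparation, per the labels' protocols. The deposited tables, 1 per tissue, hold gene-level TPM made by the authors. The submitters' processing notes name bcl2fastq, fastp 0.21.0, STAR 2.5.3a, RSEM 1.3.3 and the build mm10, without roles. The gene annotation and the use of strand are not given in the sources used here. All columns named a labelled sample. The gene targeted in SMRT-KO and some listed genes are not reported here by name.

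Tests ran on log2(TPM + 1) with limma 3.58.1 under R 4.3.3, using moderated variances and a mean-variance trend. The pseudocount of 1 understates differences of low genes. A gene was tested in a tissue at 1 TPM or more in at least 3 of 10 libraries. The 3 genotypes of a tissue were fitted together, and all 20 libraries in 1 joint fit, as unpaired libraries, for comparisons between tissues. P-values were adjusted by Benjamini-Hochberg over all tested genes, with a threshold of 0.05. "Passed" and "called" refer to that threshold. Differences of single genes also had a two-sided exact permutation test, with 35 arrangements for 3 against 4 libraries, where the smallest p is 0.0286, and 20 for 3 against 3, where it is 0.1. The fits were tested on simulated data. Gene positions are from GENCODE M21 on GRCm38 and promoters from RefSeq's GRCm38.p6 table.

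The members and lists were chosen with earlier results of these data known. Named were the 8 genes, Ncor1, the genes of the 4 pathway lists that passed or else had the smallest p, and the 3 genes closest to each member in pattern. Other pathway genes and markers were named after their values were seen. Alternatives were pseudocounts of 0.1 and 0.5, no filter, a filter at a mean of 5 TPM, quantile normalization, a fit of only the genotypes compared, no variance trend, the replicate number as a block (with genotype in the joint fit), and each library left out in turn.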

Additional observations from a re-analysis of the deposited data

Results flagged for a closer look

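In hippocampus controls 1 to 4 Hr was at 12.9, 12.7, 13.2 and 17.8 TPM. Control 4 stood apart, with a gap to the nearest library of 0.893 of the whole range, above Dixon's 95% critical value. It was 1 of 16 control groups examined, and chance flags about 1 in 20. Without control 4 the log2 difference of Hr in hippocampus SMRT-KO was 0.45, against 0.34 with all libraries.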

How the results depend on the processing

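Over the 8 genes and 9 comparisons, 1082 of 1160 alternative values kept their direction and their side of the threshold, 16 lost a call, 9 gained one and 53 changed sign. No called value changed sign. Depth is not given in TPM, so its limit on low genes such as Hr is unknown.

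The count of all genes called moved most in amygdala. For NCoR1-KO against control it was 60, and 16 with no filter, 4 with only the genotypes compared, 17 with no variance trend and 0 to 126 with a library left out. For SMRT-KO against control it was 16, and 7 with a pseudocount of 0.5, 2 with no filter, 143 with a mean of at least 5 TPM, 2 with only the genotypes compared, 3 with no variance trend and 0 to 697 with a library left out, while 0 to 4 of the 8 genes were called. Between the amygdala knockouts 246 to 1845 genes and 0 to 5 of the 8 were called with a library left out. In hippocampus the count was 1 under quantile normalization for each knockout against control, 1 for NCoR1-KO and 5 between the knockouts with only the genotypes compared, and 0 to 1 for each knockout against control with a library left out. For the tissue difference of the SMRT-KO effect it was 1 with no filter and 0 to 18 with a library left out. The causes were not tested.

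The replicate numbers do not pair the libraries by the labels, and they were taken to pair them only where every same-numbered pair's deviations correlated above 0.1, which no comparison within a tissue met. Within hippocampus the pairs of SMRT-KO and control gave r of 0.0616, 0.117 and 0.499. Between tissues all 10 same-numbered pairs were positive, from 0.000814 to 0.48, and those of NCoR1-KO were all above 0.1, but not those of SMRT-KO or control. Within a tissue the block was the replicate number, which takes up control 4. With it 854 genes were called between the amygdala knockouts, against 1679, and 4 for amygdala SMRT-KO against control, against 16. Under this block the difference was -0.16 for Crym in hippocampus NCoR1-KO and 0.014 for Klf9 in hippocampus SMRT-KO, both opposite in sign. The adjusted p of Hr between the amygdala knockouts was 0.0733. In the joint fit the block was genotype and replicate number together, which pairs libraries across tissues. There the adjusted p of Hr between control tissues was 0.0409, so that it passed beside Thrb, Dio2 and Crym. Quantile normalization turned Slco1c1 between the hippocampus knockouts to -0.000492 and Klf9 in the tissue difference of the NCoR1-KO effect to -0.00546, and gave Nrgn between the amygdala knockouts an adjusted p of 0.0445. Without SMRT-KO 1 that comparison also called Klf9 (adjusted p = 0.0137) and Nrgn (adjusted p = 0.0347), and without amygdala SMRT-KO 1 the tissue difference of Klf9 passed (adjusted p = 0.0486).

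These log2 differences, none called, crossed 0 with a library left out. For amygdala NCoR1-KO against control, Crym ran from -0.27 to 0.0161, Hr ran from -0.27 to 0.0489 and Thrb ran from -0.0238 to 0.18. For the tissue difference of the NCoR1-KO effect, Crym ran from -0.0419 to 0.30, Hr ran from -0.18 to 0.14, Klf9 ran from -0.0438 to 0.0441 and Thra ran from -0.10 to 0.0414. For the tissue difference of the SMRT-KO effect, Crym ran from -0.0127 to 0.88 and Slco1c1 ran from -0.21 to 0.0546. For hippocampus NCoR1-KO against control, Crym ran from -0.16 to 0.16 and Dio2 ran from -0.0386 to 0.12. For hippocampus NCoR1-KO against SMRT-KO, Crym ran from -0.27 to 0.63, Slco1c1 ran from -0.14 to 0.18, Thra ran from -0.14 to 0.10 and Thrb ran from -0.0209 to 0.19. For hippocampus SMRT-KO against control, Crym ran from -0.60 to 0.30, Hr ran from -0.0356 to 0.69, Klf9 ran from -0.0329 to 0.0137, Nrgn ran from -0.20 to 0.0502 and Thra ran from -0.20 to 0.0379. For control hippocampus against control amygdala, Nrgn ran from -0.0721 to 0.052. For amygdala NCoR1-KO against SMRT-KO, Thrb ran from -0.17 to 0.0363. The alternatives for the called pathway genes were chosen after seeing the data. Without the filter or without the variance trend Cntn2, Nefm and Nefh no longer passed (adjusted p from 0.0509 to 0.0746), with quantile normalization Nefh did not (adjusted p = 0.0539), and with the block Slc7a8, Hdac3, Cntn2, Nefm and Nefh did not (adjusted p from 0.0562 to 0.0911).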
